A study of Mus musculus with 4 samples.

Results

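Regions of open chromatin that lie between or across the ends of neighbouring genes were described in G1ER cells, a mouse erythroblast line, with and without the chromatin remodeller Chd7. Peaks of 4 ATAC-seq lists were merged wherever they overlapped on chromosomes 1 to 19 and X. A merged region was kept if it was called in at least 2 libraries and lay within 1000 bp of an end of 2 or more different protein-coding genes. This left 1440 regions out of 11994 regions called in at least 2 libraries, or 12.01%, and out of 15316 merged regions in all. Of the 1440, 1408 lay near 2 genes and 32 near 3 genes. They touched ends of 2768 genes, which is 12.8% of the 21631 protein-coding genes in the gene table. For 35 gene sets there were 2 member regions each, so those 70 regions share their genes with another member.

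The knockout group held 2 libraries of Chd7-/- G1ER cells and the wild-type group held 2 libraries of wild-type G1ER cells. Each library was made from 50000 cells with no treatment, and the first replicate of a genotype carries the time 1 h and the second the time 2 h. All cells grew with erythropoietin and medium conditioned to hold stem cell factor, so the comparison is between growing erythroblasts. The names of both knockout libraries carry the same code, E9. The labels do not say that libraries of a genotype came from separate cultures, so every p-value measures the spread between these libraries, which may be technical. A difference between genotypes also cannot be told apart from a difference between this knockout line and the wild-type line.

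When 2 genes lie head to head on opposite strands with their starts close together, a stretch of DNA can serve as promoter for both, and such an arrangement is called a bidirectional promoter. These promoters are usually CpG islands that stay free of nucleosomes in many tissues, and they often drive housekeeping genes, among them genes of DNA repair and of mitochondria. ATAC-seq reads such nucleosome-free DNA, because a transposase inserts sequencing adapters where DNA is accessible. Chd7 is an ATP-dependent nucleosome remodeller of the chromodomain family that is known to bind enhancers and promoters. No member region lay at an end of Chd7, Runx1, Gata1, Kit or Cbfb.

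Promoter sequences of 4 gene pairs are shown first because they span the range of what follows. Npc2/Isca2 and Tmem126b/Dlg2 were among the strongest members in every library. Oxld1/Ccdc137 was called in knockout libraries and not in wild-type libraries. Awat2/Igbp1 was called in wild-type libraries and not in knockout libraries. Each is 300 bases from RefSeq on GRCm38.p6, written 5′ to 3′ on the strand of the gene named before it, with that gene's start at base 251, and with matches to the searched motif letters in capitals. Npc2 lies on the minus strand at chr12:84773063-84773362, and the start of Isca2 is at base 133. Tmem126b lies on the minus strand at chr7:90475946-90476245, and the start of Dlg2 is at base 58. Oxld1 lies on the minus strand at chr11:120458021-120458320, and the start of Ccdc137 is at base 209. Igbp1 lies on the plus strand at chrX:100494041-100494340, and the start of Awat2 is at base 238.
Npc2: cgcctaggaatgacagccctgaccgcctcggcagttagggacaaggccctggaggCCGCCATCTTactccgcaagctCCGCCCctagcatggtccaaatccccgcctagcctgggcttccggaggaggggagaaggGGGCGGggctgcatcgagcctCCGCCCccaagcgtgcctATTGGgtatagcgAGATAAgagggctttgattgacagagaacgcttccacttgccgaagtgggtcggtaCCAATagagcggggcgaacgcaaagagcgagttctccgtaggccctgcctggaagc
Tmem126b: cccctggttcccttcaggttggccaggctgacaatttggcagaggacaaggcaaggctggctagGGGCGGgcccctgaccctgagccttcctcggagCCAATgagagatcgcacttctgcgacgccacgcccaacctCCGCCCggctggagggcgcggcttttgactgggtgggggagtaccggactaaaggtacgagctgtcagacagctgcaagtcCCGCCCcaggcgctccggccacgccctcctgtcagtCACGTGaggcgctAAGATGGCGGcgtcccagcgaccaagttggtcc
Oxld1: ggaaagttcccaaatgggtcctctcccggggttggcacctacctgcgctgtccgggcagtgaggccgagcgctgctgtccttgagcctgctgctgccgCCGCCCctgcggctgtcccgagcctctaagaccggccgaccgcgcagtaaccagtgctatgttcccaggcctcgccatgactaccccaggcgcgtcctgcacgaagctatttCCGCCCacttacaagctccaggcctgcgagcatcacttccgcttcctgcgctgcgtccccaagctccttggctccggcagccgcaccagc
Igbp1: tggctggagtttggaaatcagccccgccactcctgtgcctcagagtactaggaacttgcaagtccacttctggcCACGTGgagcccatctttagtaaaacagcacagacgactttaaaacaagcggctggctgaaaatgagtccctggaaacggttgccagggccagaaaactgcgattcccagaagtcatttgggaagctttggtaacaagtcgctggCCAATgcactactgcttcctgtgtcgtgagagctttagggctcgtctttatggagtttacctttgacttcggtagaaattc
The Npc2 window holds letters of the YY1, SP/KLF, NF-Y and GATA motifs, and the Tmem126b window those of the SP/KLF, NF-Y, E-box and YY1 motifs. The Oxld1 window holds SP/KLF letters alone, and the Igbp1 window holds E-box and NF-Y letters. The share of G and C was 62.7% for Npc2, 65.7% for Tmem126b, 66.3% for Oxld1 and lower for Igbp1.

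Divergent starts were the largest class of members, though not most of them, among those of known strand. Strand was known for 2330 of the 2768 genes, or 84.2%, and gave an orientation to all but 348 members. Starts of 2 genes diverged at 531 members, and the starts of 2 genes on opposite strands lay inside each other's gene at 279 members. A start lay beside the 3′ end of another gene at 251 members. Starts on the same strand met at 26 members, and at 5 members only 3′ ends were near. These positions are the outermost ends of each gene in the table, so an alternative start within a gene is not seen.

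At most divergent pairs, the region covered the stretch between the starts. The median distance between the starts was 101 bp, with quartiles of 50 and 228 bp. The region covered both starts at 461 of 531 pairs, or 86.8%. The summit, the base of the highest signal of a peak, lay within 200 bp of the midpoint between the starts at 83.1% and 79.9% of divergent pairs in the knockout libraries, and at 82.0% and 82.4% in the wild-type libraries. The knockout and wild-type ranges overlapped. That window is wide beside the median distance between the starts. The summit lay between the starts themselves at 50.6% and 49.0% of divergent pairs in the knockout libraries, and at 50.7% and 54.0% in the wild-type libraries. For pairs at most 100 bp apart this held for 32.5% and 30.9% in knockout and 32.8% and 37.1% in wild type. Over members called in all 4 libraries, the summits of 2 libraries lay a median of 27 to 32 bp apart, and the knockout to knockout value of 29 bp and the wild-type to wild-type value of 28 bp fell within the range between genotypes.

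**Figure D1:**
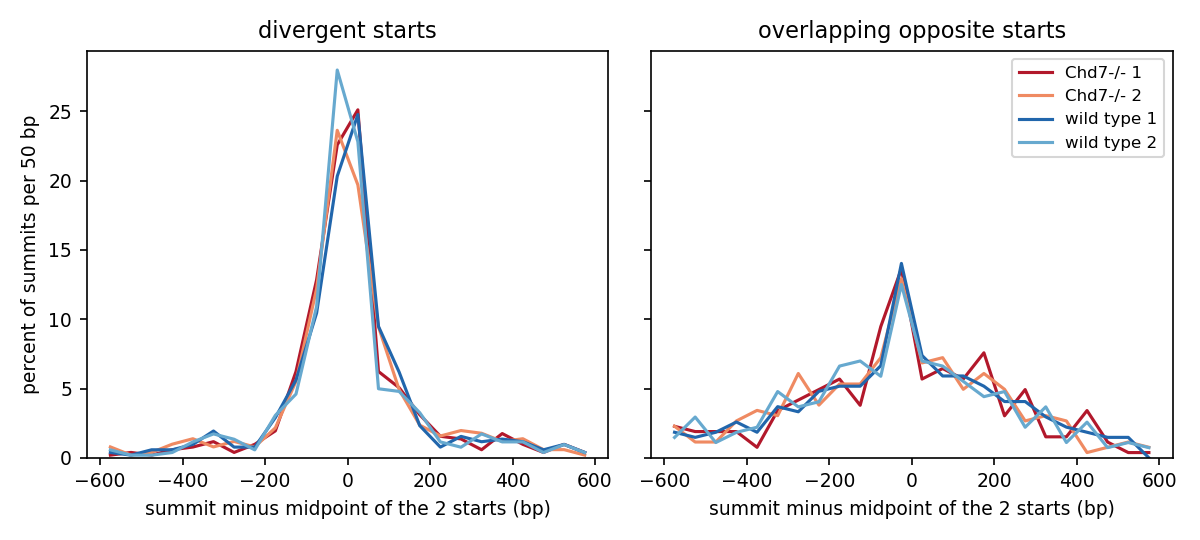
Position of peak summits relative to the midpoint between the starts of 2 genes, as the percent of summits in each 50 bp step, for divergent starts and for overlapping opposite starts. Each line is a library. In all 4 libraries the summits gather around the midpoint of divergent starts. They spread more widely where the starts overlap, and those starts also lie farther apart in the median.

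Where the starts overlapped, the summits were spread more widely. There, 58.0% and 55.9% of summits in the knockout libraries lay within 200 bp of the midpoint of the starts, with 55.4% and 55.5% in the wild-type libraries. The region covered both starts at 174 of 279 such members, or 62.4%. The 2 classes also differ in spacing, with a median gap of 101 bp at divergent starts and -260 bp at overlapping starts. At divergent pairs 401 to 1000 bp apart, 32.4% and 27.8% of summits in knockout lay within 200 bp of the midpoint. In wild type it was 30.8% and 33.3%. The part of spacing in the wider spread was not tested. At the 251 members with a start beside another gene's 3′ end, the summit sat at the start. It was nearer to the start in 218 of 233 called members (93.6%) and 214 of 229 (93.4%) in the knockout libraries, and in 212 of 223 (95.1%) and 230 of 244 (94.3%) in the wild-type libraries. The median distance to the start was 77 and 69 bp in knockout libraries and 66 and 67 bp in wild-type libraries. The median distance to the 3′ end was 603 and 600 bp in knockout libraries and 539 and 583.5 bp in wild-type libraries. Both genes had an end inside the region itself at 906 of the 1440 members, or 62.9%.

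Starting from the genes instead, head-to-head pairs were mostly open in these cells. Genes of known strand formed 573 divergent pairs with starts within 1000 bp of each other. A region within 500 bp of the pair was called in all 4 libraries for 465 of them, or 81.2%. No region was called in any library for 64 pairs, or 11.2%. The 16128 other genes of known strand include those with overlapping opposite starts. Among them, a region within 500 bp of the start was called in all 4 libraries for 4480, or 27.8%, and in none for 10651, or 66.0%. These are descriptions of shares, since a pair offers 2 starts and a wider window, and a single gene offers 1 start.

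Members were called more evenly than other regions. All 4 libraries called 1253 of 1440 members, or 87.0%, against a background of 72.5% of all regions called in at least 2 libraries. The share was 83.9% for the 5596 regions at 1 gene end and 55.4% for the 4958 regions at no gene end. Regions at 1 gene end were thus close to the members. Within the members, 91.5% of divergent start pairs and 88.5% of overlapping opposite starts were called in all 4 libraries, with 79.7% of starts beside a 3′ end. The knockout libraries called 1366 and 1355 members, and the wild-type libraries called 1359 and 1405. Their means were 1360.5 ± 7.78 in knockout and 1382 ± 32.5 in wild type (SD, n = 2 each), and the knockout values lay within or just below the wild-type range. A two-sided exact permutation test gave p = 0.667, and the smallest p that 2 libraries against 2 allow is 0.333.

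Peaks at members ranked in the upper part of their own lists, a little above those at 1 gene end. A peak's strength is given here as the percentile of its deposited fold enrichment, the caller's ratio of summit pileup to local background, among all peaks of its library. The median percentile of members was 68.3 and 66.6 in the knockout libraries and 65.2 and 66.5 in the wild-type libraries. At regions at 1 gene end it was 64.9 and 62.9 in knockout and 62.1 and 64.3 in wild type. At regions at no gene end it was 40.8 and 38.8 in knockout and 36.0 and 37.0 in wild type. Over all regions called in at least 2 libraries it was 55.7 and 53.7 in knockout and 53.0 and 54.3 in wild type. The members of knockout libraries averaged 67.4 ± 1.17 and those of wild-type libraries 65.8 ± 0.943 (SD, n = 2 each). Knockout values lay above wild-type values with no overlap, by as little as the step between 66.6 and 66.5, and the exact two-sided permutation p was 0.333, the smallest possible. The order turned when only peaks with −log10 q of at least 5 were kept, at 63.59 in knockout and 63.63 in wild type. Median region width was 675 bp at members, 627 bp at 1 gene end and 442 bp at no gene end.

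**Figure D2:**
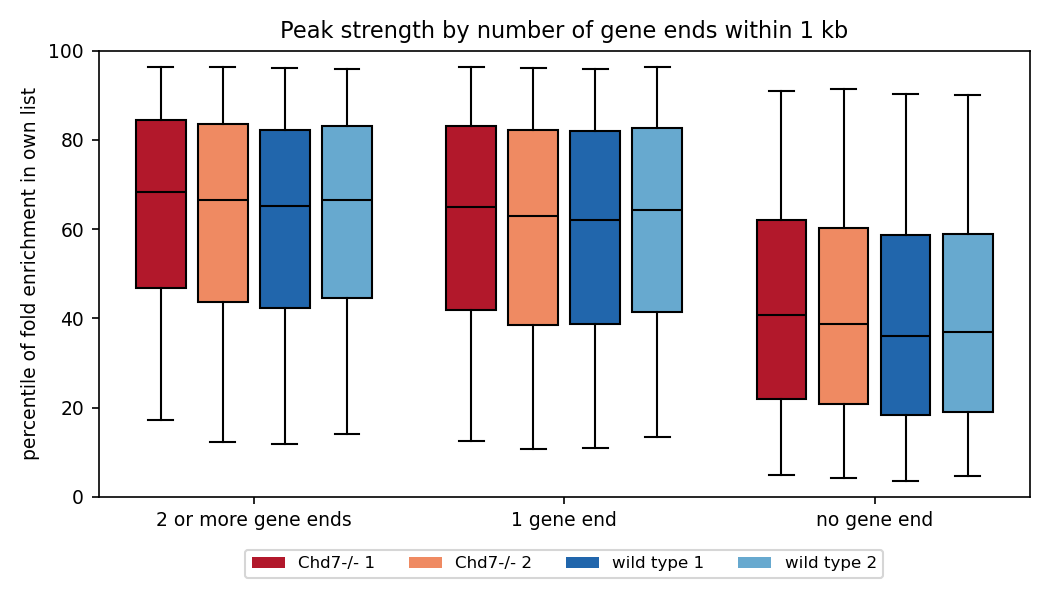
Percentile of fold enrichment within each library's own list, for regions with 2 or more gene ends within 1 kb, with 1 and with none. Boxes span the quartiles with the median as a line, whiskers span the 5th to the 95th percentile, and each colour is a library. The 4 libraries lie close together in each class, and regions at no gene end lie lowest.

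Strength varied with the spacing of the starts. Taking for each region the lowest percentile over the libraries that call it, the median was 58.6 for divergent starts, 52.4 for overlapping opposite starts and 38.7 for starts beside a 3′ end. Among divergent pairs it was 55.4 for the 264 pairs at most 100 bp apart, 69.1 for the 121 pairs at 101 to 200 bp and 59.9 for the 96 pairs at 201 to 400 bp. It was 48.3 for the 39 pairs at 401 to 1000 bp and 44.0 for the 11 pairs farther apart, a group too small to place. In every library the pairs at 101 to 200 bp had the highest median percentile, at 80.3 and 78.8 in the knockout libraries and 75.4 and 76.8 in the wild-type libraries. The pairs at 201 to 400 bp stood close below, at 79.0 and 77.0 in knockout and 73.0 and 74.4 in wild type.

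**Figure D3:**
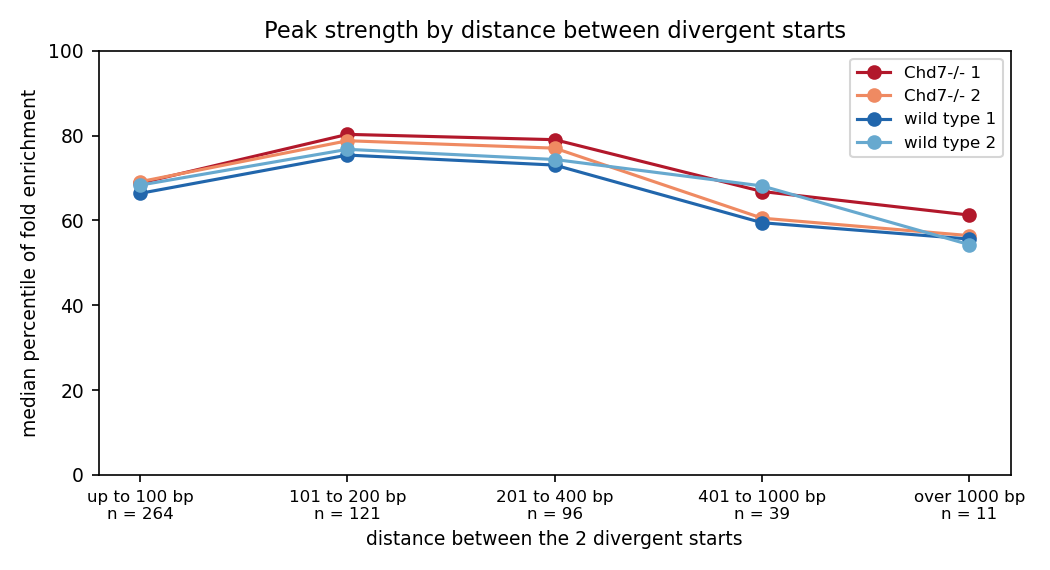
Median percentile of fold enrichment of divergent start pairs by the distance between the starts in bp, with a line for each library and the number of pairs under each group. In all 4 libraries the pairs at 101 to 200 bp stand highest, and the pairs over 1000 bp rest on 11 regions.

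The strongest members were chosen for a high rank in every library that called them. The largest lowest-percentile value, 99.5, was at Fyco1/Xcr1, where the start of Fyco1, which encodes an adaptor for autophagosome transport, lies 416 bp from the end of the chemokine receptor gene Xcr1. Its fold enrichment was 18.1 and 20.3 in the knockout libraries and 18.9 and 17.7 in the wild-type libraries, and the groups overlapped. Its pileups were 67 and 69 in knockout and 58 and 66 in wild type, with both knockout values the higher ones. BC005624/Usp20, next to a deubiquitinase gene, had 16.7 and 15.7 in knockout and 16.3 and 16.3 in wild type.

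Npc2/Isca2 joins a lysosomal cholesterol transporter to a mitochondrial iron-sulfur assembly factor, with 118 bp between the starts. Its fold enrichment was 15.9 and 17.1 in knockout libraries and 16.6 and 17.5 in wild-type libraries. Tmem126b/Dlg2 joins an assembly factor of respiratory complex I to a synaptic scaffold gene, with 193 bp between the starts. It had 15.6 and 17.5 in knockout and 16.8 and 15.2 in wild type. At both members the knockout and wild-type fold enrichments overlapped, as did the pileups once centred on each library's median. The other members among the 10 strongest were Usp32/1700125H20Rik, Plag1/Chchd7, Ap2a1/Tsks, Adam9/Tm2d2, Eaf2/Golgb1 and Poln/Haus3, with lowest percentiles between 97.0 and 98.4.

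Few members were called in only 1 genotype. Peaks in both knockout libraries, with none in wild type, were found at 14 members, or 0.972%, against a background of 3.46% of all regions called in at least 2 libraries. Peaks in both wild-type libraries, with none in knockout, were found at 23 members, or 1.60%, against 2.88%. At 1 gene end the shares were 1.20% knockout-only and 2.04% wild-type-only, and at no gene end 6.74% knockout-only and 4.22% wild-type-only. A further 51 members were called in 1 library of each genotype. Calls in 3 libraries missed knockout replicate 1 at 29 members, knockout replicate 2 at 33, wild-type replicate 1 at 33 and wild-type replicate 2 at 4. The lowest background of the 4 libraries, which follows depth, was 1.04 and 1.01 in knockout and 0.787 and 1.08 in wild type, and the part of depth in these counts was not tested.

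Peaks called in 1 genotype alone were weak. The 14 knockout-only members had lowest percentiles between 0.827 and 52.2, with a median of 20.9, and 1 of them passed 50. The 23 wild-type-only members ran between 0.479 and 41.4, with a median of 8.32. Their summit pileups, the numbers of reads or fragments stacked at the summit, were between 8 and 24 in the knockout-only members and between 8 and 29 in the wild-type-only members. Over all members the median pileup was 28 and 26 in knockout and 27 and 31 in wild type. A list gives no value where no peak was called, so no fold change can be given for these regions. The lists were made per library with a smallest −log10 q between 1.32 and 1.42, and a missing peak is a peak under the caller's threshold.

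The strongest knockout-only member was Trp53tg5/Dbndd2, with fold enrichments of 8.09 and 7.69 in the knockout libraries and no peak in either wild-type library. Ebp/Porcn, which holds the sterol isomerase gene Ebp and the gene of the Wnt acyltransferase Porcn, had 6.88 and 6.96 in knockout. Dnase1l1/Taz, at the gene of the cardiolipin-remodelling enzyme tafazzin, had 6.88 and 6.46. Tm7sf2/Vps51, with a sterol reductase gene, had 7.14 and 5.60. Tpi1/Usp5, at the gene of the glycolytic enzyme triosephosphate isomerase, had 5.90 and 6.07. The rest of the 10 strongest were Apex2/Pfkfb1, Gm30447/Herc1, Oxld1/Ccdc137, Pacs2/Tex22 and Trim14/Coro2a. Oxld1/Ccdc137, whose sequence stands above, had pileups of 10 and 13 in the knockout libraries.

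The strongest wild-type-only member was Iqcc/Ccdc28b, with fold enrichments of 7.41 and 8.85 in the wild-type libraries and no peak in either knockout library. Rida/Pop1, at the gene of a protein subunit of ribonuclease P, had 7.22 and 6.76. Cyba/Mvd, with genes of a NADPH oxidase subunit and of the mevalonate pathway, had 6.49 and 6.48. Awat2/Igbp1, whose starts are 13 bp apart, had pileups of 13 and 12 in the wild-type libraries. The rest of the 10 strongest were Rabl6/Ccdc183, Ino80e/Hirip3 region 1, Zbtb6/Zbtb26, Armc7/Nt5c, Ampd2/Gm12500/Gnat2 and the histone pair H2ac10/H3c8. Only 2 knockout-only and 3 wild-type-only members were divergent start pairs.

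Some members called in 1 genotype lay beside a region called in all 4 libraries. Within 1000 bp this held for 1 of the 14 knockout-only members and 4 of the 23 wild-type-only members. At Poglut2/Bivm, the knockout-only region 2 lay 76 bp from region 1. At Mrpl41/Pnpla7, the wild-type-only region 2 lay 469 bp from region 1, which was called in all 4 libraries with pileups of 31 and 21 in knockout and 26 and 35 in wild type. The median distance to such a region was 10463.5 bp for knockout-only members and 9802 bp for wild-type-only members.

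Accessibility at members called in all 4 libraries did not pass a test between genotypes at any region. Summit pileups were compared as log2(pileup + 1), centred on each library's median, by limma over 8697 regions called in all 4 libraries with Benjamini-Hochberg adjustment over all of them. Of the 1253 members tested, 0 passed an adjusted p of 0.05, against a background of 0.0% of all regions, and the smallest adjusted p of a member was 0.298. At an unadjusted p under 0.05 there were 30 members higher and 32 lower in knockout. Together they are 62 of 1253 members, against a background of 8.68% of all regions, with 5.01% higher and 3.67% lower. The median log2 difference, knockout minus wild type, was 0.00 over members and 0.02 over all regions. On the centred scale, both knockout values lay above both wild-type values at 259 members (20.7%, background 21.4%) and below them at 220 (17.6%, background 17.3%), and these shares are close to the background.

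Wide gaps towards lower values in knockout were seen at 4 members. Mrpl43/Twnk, which pairs a mitochondrial ribosomal protein with the mitochondrial DNA helicase Twinkle, had pileups of 12 and 10 in the knockout libraries and 21 and 23 in the wild-type libraries. Both knockout values lay below both wild-type values, with a log2 difference of -0.86 ± 0.18 (SE, n = 2 each) and limma adjusted p of 0.298. Helq/Mrps18c, which pairs a DNA repair helicase with another mitochondrial ribosomal protein, had 12 and 17 in knockout and 23 and 34 in wild type. Again the genotypes did not overlap, and the log2 difference was -0.84 ± 0.24 with a limma adjusted p of 0.387. It was -0.55 without knockout replicate 1 and lay between -1.19 and -0.71 without each other library.

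Exoc5/Ap5m1, with genes of the exocyst and of an adaptor complex, had pileups of 11 and 14 in knockout and 24 and 23 in wild type (log2 difference -0.79). Dcun1d2/Tmco3, with a gene of the neddylation pathway, had 22 and 18 in knockout and 34 and 37 in wild type (log2 difference -0.72). At each of these members the knockout values were the lower ones at 1 h and at 2 h, and limma adjusted p was 0.375 for Exoc5/Ap5m1 and 0.363 for Dcun1d2/Tmco3. With pileups scaled by lowest background in place of centring, all 4 of these members passed, with limma adjusted p between 0.00938 and 0.0361. They had the same SE there, 0.255, pooled over all regions, so those p-values do not reflect each member's own spread. That scaling called 5 members, all lower, and 0.805% of all regions. It put the median over all regions at -0.21 and turned the unadjusted count to 5 members higher and 157 lower. Relative to that median the differences of these 4 members were between -0.88 and -0.75, close to those with centring. Without knockout replicate 2, 3 members passed, which were Helq/Mrps18c, Yipf2/Timm29 and Exoc5/Ap5m1, with 0.595% of all regions.

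The sequence of Mrps18c on the plus strand at chr5:100798509-100798808 and that of Mrpl43 on the minus strand at chr19:45006393-45006692 are given because these members had the widest of these gaps. They are from RefSeq on GRCm38.p6, 300 bases each with the gene's start at base 251 and motif letters in capitals. The start of Helq is at base 153 of the Mrps18c window, and the start of Twnk is outside the Mrpl43 window.
Mrps18c: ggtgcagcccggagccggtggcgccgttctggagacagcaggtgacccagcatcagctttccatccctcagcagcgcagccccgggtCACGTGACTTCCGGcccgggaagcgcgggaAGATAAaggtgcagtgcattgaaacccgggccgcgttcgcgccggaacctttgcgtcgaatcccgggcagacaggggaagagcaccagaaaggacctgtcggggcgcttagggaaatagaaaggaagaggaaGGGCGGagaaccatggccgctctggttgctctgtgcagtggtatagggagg
Mrpl43: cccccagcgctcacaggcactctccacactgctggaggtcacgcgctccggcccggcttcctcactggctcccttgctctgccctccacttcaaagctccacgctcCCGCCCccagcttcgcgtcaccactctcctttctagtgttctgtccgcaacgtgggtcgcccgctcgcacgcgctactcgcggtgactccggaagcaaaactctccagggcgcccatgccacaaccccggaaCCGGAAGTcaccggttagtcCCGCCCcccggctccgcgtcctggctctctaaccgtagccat
Both windows hold letters of the ETS and SP/KLF motifs. In the Mrps18c window the ETS letters follow directly on those of the E-box, and GATA letters lie further on. The share of G and C was 63.3% for Mrps18c and 66.3% for Mrpl43.

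Wide gaps towards higher values in knockout were seen at 4 other members. H2-T22/Gm6034, at a nonclassical MHC class I gene, had pileups of 21 and 16 in knockout and 9 and 13 in wild type. The genotypes did not overlap, and the log2 difference was 0.79 ± 0.20 (SE, n = 2 each) with a limma adjusted p of 0.363. MHC class I genes have near-identical copies, so reads of H2-T22 may be shared with them.

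Tmem217/Tbc1d22b had pileups of 30 and 25 in knockout and 17 and 16 in wild type (log2 difference 0.78). Region 2 of Actr1a/Sufu, at the genes of a dynactin subunit and of the Hedgehog pathway inhibitor Sufu, had 34 and 30 in knockout and 18 and 21 in wild type (log2 difference 0.77). Rad51c/Tex14, which pairs a recombination gene with a germ-cell gene, had 23 and 14 in knockout and 11 and 11 in wild type (log2 difference 0.74). That difference was 0.46 without knockout replicate 1 and 0.97 without knockout replicate 2. In these 3 members the knockout values were the higher ones at 1 h and at 2 h, and no member passed in this direction under any alternative fit.

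**Figure D4:**
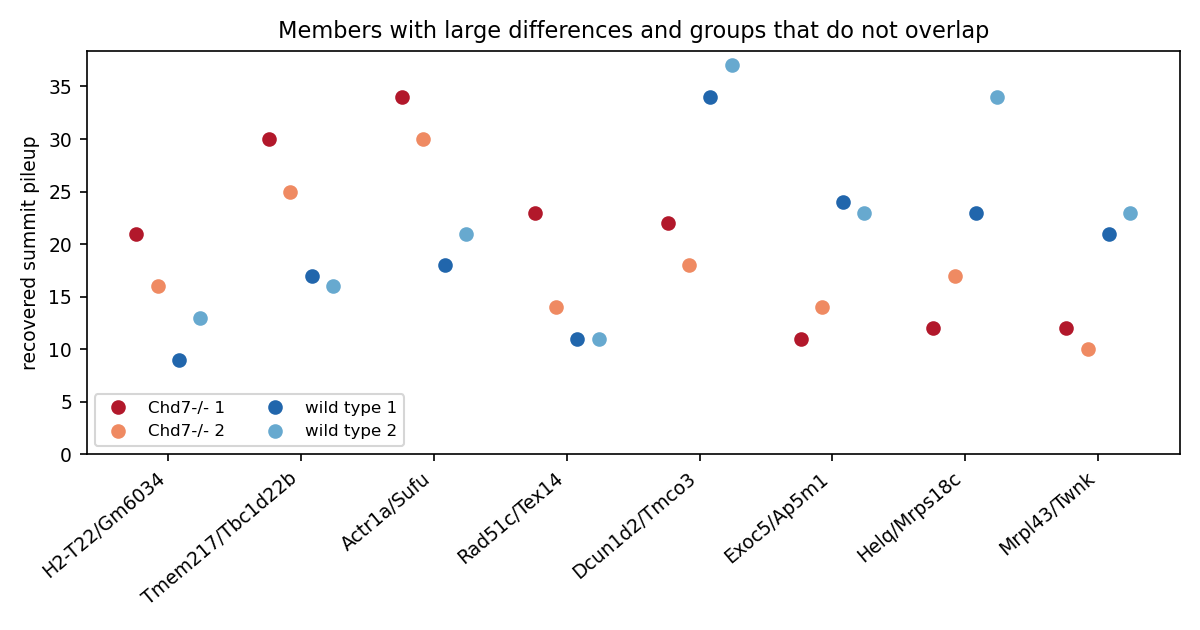
Recovered summit pileup in each library for 4 members with large positive and 4 with large negative log2 differences among those whose genotypes do not overlap. Each point is a library, with knockout to the left of wild type. Pileups are not centred. Knockout points stand above wild-type points at the 4 members on the left and below them at the 4 on the right, and no member passed an adjusted p of 0.05 in the fit with centred pileups.

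Gene groups differed in how many of their genes lie at members. Of 42 genes known from human or mouse bidirectional promoters, 30 lay at 16 members, and all 16 members were called in all 4 libraries, with a median lowest percentile of 71.1. The list was made of such pairs, so its share says nothing new about them. Atm/Npat, with the DNA damage kinase Atm and a regulator of histone gene transcription, had fold enrichments of 16.2 and 13.8 in knockout and 13.6 and 15.4 in wild type. Hspd1/Hspe1, the mitochondrial chaperonin pair, had 14.3 and 13.5 in knockout and 13.0 and 12.2 in wild type. Mcm4/Prkdc, which carries a replication licensing gene and the gene of a DNA-dependent kinase, ranked below them. At Hspd1/Hspe1 and Mcm4/Prkdc both knockout fold enrichments lay above both wild-type ones. Hspd1/Hspe1 had pileups of 93 and 83 in knockout and 83 and 92 in wild type, and both knockout values were the higher ones once centred on each library's median. Mcm4/Prkdc had 42 and 48 in knockout and 41 and 51 in wild type, and its centred values overlapped.

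Genes of DNA repair lay at members for 28 of 60, or 46.7%, and respiratory chain genes for 38 of 87, or 43.7%. Mitochondrial ribosome genes did so for 33 of 78 (42.3%), RNA processing and translation genes for 64 of 173 (37.0%) and replication and cell cycle genes for 15 of 55 (27.3%). Cytosolic ribosome genes did so for 21 of 84, and all protein-coding genes for 12.8%. Other genes of these lists lay at regions with 1 gene end and at no member. They were 26 DNA repair, 35 respiratory chain, 32 mitochondrial ribosome, 95 RNA processing, 36 replication and 52 cytosolic ribosome genes. Over all protein-coding genes there were 5274 such genes, beside 2768 at members. How far the shares follow from how many genes of a list have an open end was not tested. Of the 28 DNA repair members, 27 were called in all 4 libraries, with a median lowest percentile of 63.5. Mospd2/Fancb, at a gene of the Fanconi anaemia pathway, had pileups of 47 and 45 in knockout and 46 and 41 in wild type, and the genotypes overlapped.

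Mrpl32/Psma2, which pairs a mitochondrial ribosomal protein with a proteasome subunit, had pileups of 39 and 41 in knockout and 41 and 49 in wild type. Uqcrq/Gdf9, at a subunit of respiratory complex III, had 74 and 65 in knockout and 55 and 58 in wild type, with both knockout values above both wild-type values. Rps21/Cables2, at a gene of the small ribosomal subunit, had 57 and 47 in knockout and 44 and 47 in wild type. Bckdha/Exosc5, at an RNA exosome gene, had 36 and 38 in knockout and 41 and 43 in wild type. None of these members passed the limma test.

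Histone genes lay at members for 43 of 100, in 25 members that were weak, with a median lowest percentile of 18.1. Their clusters hold many near-identical genes, and reads may be shared between them. Dpagt1/H2ax, the strongest of them, had pileups of 53 and 55 in knockout and 43 and 39 in wild type, and the genotypes did not overlap. H2ac6/H2bc4 had 23 and 20 in knockout and 23 and 29 in wild type, with the 2 genotypes meeting at 23 before centring and apart after it.

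Of 44 erythroid genes 4 lay at members, or 9.09% beside 12.8% of all protein-coding genes, and 23 at regions with 1 gene end, while of 29 markers of other lineages 0 lay at members and 1 at a region with 1 gene end. This is the check of the labelled cell type. The 4 are 3 genes of haem synthesis, Ppox, Urod and Uros, and the red cell adhesion gene Icam4. Ppox/Usp21 had pileups of 32 and 33 in knockout and 32 and 36 in wild type. Urod/Hectd3 had 17 and 23 in knockout and 15 and 19 in wild type, and Uros/Bccip had 18 and 12 in knockout and 19 and 23 in wild type. Icam4/Icam5 was called with 22 in knockout replicate 1, was not called in knockout replicate 2, and had 11 and 21 in wild type.

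Of 46 transcription factor genes in a list drawn up for blood cells, 7 lay at members, which were Gabpa, Klf3, Usf1, Usf2, Elf1, E2f4 and Etv6. The list was not limited to factors particular to blood. Atp5j/Gabpa, at the gene of an ETS factor, had pileups of 46 and 40 in knockout and 48 and 55 in wild type. Arhgap30/Usf1 had 37 and 19 in knockout and 32 and 48 in wild type, a wide spread within each genotype. Of 43 chromatin regulator genes 9 lay at members. Chd4/Nop2, at a remodeller gene of the NuRD complex, had 38 and 34 in knockout and 28 and 27 in wild type, with both knockout values higher. Smarcd2/Tcam1, at a gene of a BAF complex subunit, had 47 and 51 in knockout and 42 and 56 in wild type, and the genotypes overlapped. Gnl3/Pbrm1, at the gene of another subunit of such complexes, had 37 and 30 in knockout and 47 and 55 in wild type, with both knockout values lower.

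Over these lists, 0 members were knockout-only, and 1 member each was wild-type-only in the mitochondrial ribosome, cytosolic ribosome, histone and RNA processing lists. These wild-type-only members were region 2 of Mrpl41/Pnpla7, Rpl36/Lonp1, H2ac10/H3c8 and Sfi1/Gm51877/Eif4enif1. Sfi1/Gm51877/Eif4enif1 had wild-type pileups of 26 and 29 but fold enrichments of only 3.79 and 3.35. Its percentiles were 0.795 and 0.557, so its local background was high. The knockout-only share was 3.46% over all regions and 0.972% over all members. The wild-type-only share was 2.88% over all regions and 1.60% over all members. No list held a member that passed an adjusted p of 0.05 with limma. At an unadjusted p under 0.05 there were 0 higher and 3 lower among 28 tested mitochondrial ribosome members, 1 and 3 among 59 RNA processing members and 2 and 1 among 21 histone members. There was 1 higher and 0 lower among 18 cytosolic ribosome members. There was 1 in each direction among 33 respiratory chain, 27 DNA repair and 9 chromatin regulator members, and 0 in the other lists. Over all regions 5.01% were higher and 3.67% lower. The median log2 difference was -0.03 for the mitochondrial ribosome, -0.02 for RNA processing, -0.09 for histones and 0.17 for the 18 tested cytosolic ribosome members, beside 0.00 over all members.

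Promoters at members were rich in CpG and carried some motifs more often than promoters at large. Motif letters were searched on both strands, and the motifs of NRF1, YY1 and ZNF143 are given by name. Windows were 300 bases of RefSeq promoters, of 1036 genes at divergent starts, 547 at overlapping opposite starts, 4346 at starts in regions with 1 gene end and 17274 in all. Where starts are close, the 2 windows of a pair share sequence, so they are not independent. The median share of G and C was 62.0% at divergent starts, 62.7% at overlapping starts, 61.7% at 1 gene end and 56.3% over all promoters. The ratio of observed to calculated CpG was 0.856 at divergent starts, 0.825 at overlapping starts, 0.813 at 1 gene end and 0.586 over all promoters.

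The ETS letters, CCGGAAGT, were in 13.3% of promoters at divergent starts and 15.7% at overlapping starts, with 10.1% at 1 gene end and 5.34% over all promoters. YY1 letters were in 4.83% at divergent starts and 2.19% at overlapping starts, with 2.67% at 1 gene end and 1.27% in all. NRF1 letters were in 3.67% at divergent starts and 1.46% at overlapping starts, with 2.78% at 1 gene end and 1.35% in all. All of them were found more often at divergent starts than at 1 gene end, and at overlapping starts this held for ETS alone.

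The TATA letters, TATAAA, were in 5.60% of promoters at divergent starts, with 5.96% at 1 gene end and 13.4% in all. The GATA letters, AGATAA, were in 5.50% at divergent starts, with 5.66% at 1 gene end and 9.99% in all. The RUNX letters, TGTGGT, were in 9.85% at divergent starts, with 12.1% at 1 gene end and 14.8% in all. The letters of these motifs were thus less common at divergent starts than over all promoters. The SP/KLF letters, GGGCGG, were in 67.9% at divergent starts, with 71.9% at 1 gene end and 46.9% in all. The NF-Y letters, CCAAT, were in 45.6% at divergent starts, with 42.7% at 1 gene end and 39.6% in all. The remaining motifs were about as common at divergent starts as at 1 gene end. The CRE letters, TGACGTCA, were in 4.15% at divergent starts and 4.16% at 1 gene end. The E-box letters, CACGTG, were in 11.1% at divergent starts and 11.5% at 1 gene end. The E2F letters, TTTCCCGC or else TTTGGCGC, were in 3.38% at divergent starts and 3.77% at 1 gene end. ZNF143 letters were in 0.965% at divergent starts and 1.01% at 1 gene end. A match is a match of letters and says nothing of binding, and the part of base composition in these shares was not tested.

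**Figure D5:**
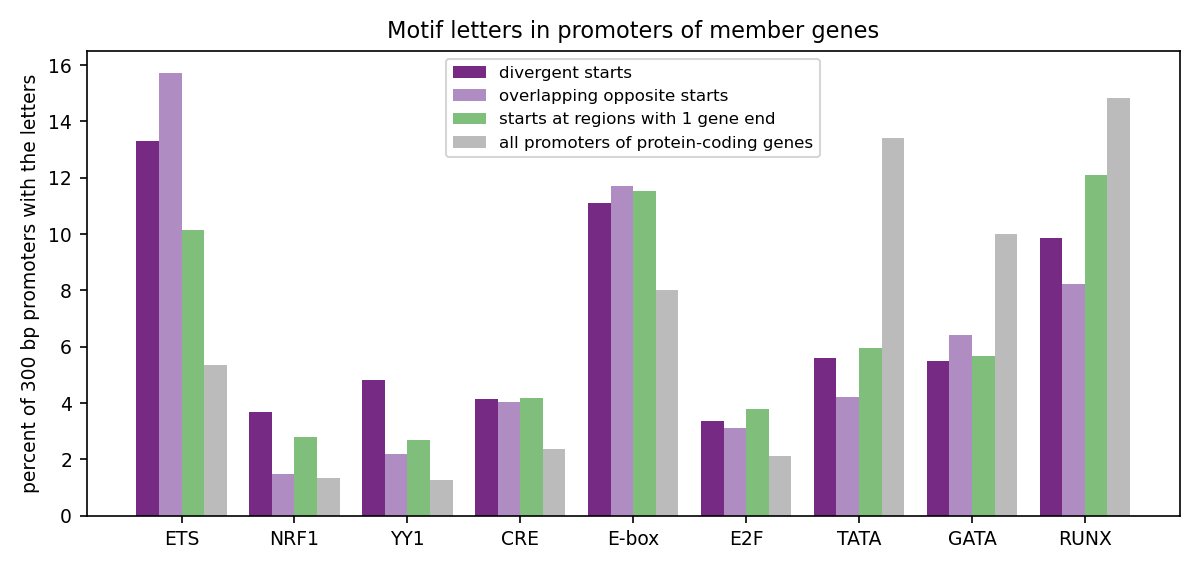
Percent of 300-base promoters that hold the letters of each motif on either strand, for genes at divergent starts, genes at overlapping opposite starts, starts in regions with 1 gene end and all protein-coding genes. ETS, NRF1 and YY1 letters stand higher at divergent starts than at 1 gene end, while TATA, GATA and RUNX letters stand lower at members than over all promoters.

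The 3 widest members were not among the strongest. The widest, 2651 bp between LOC108167694 and Gm20783, had pileups of 93 and 90 in knockout and 81 and 92 in wild type but fold enrichments of only 4.85 and 5.33 in knockout and 4.77 and 5.13 in wild type. Its percentile was therefore between 5.90 and 17.2. Ccdc106/U2af2, 1816 bp wide at a splicing factor gene, had pileups of 49 and 45 in knockout and 41 and 49 in wild type. Zfp668/Zfp646, 1581 bp wide at 2 zinc-finger genes, had 21 and 22 in knockout and 23 and 33 in wild type.

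Of the 32 members near ends of 3 genes, 29 were called in all 4 libraries, 0 were knockout-only and 2 were wild-type-only. Over all regions called in at least 2 libraries the shares were 72.5% in all 4, 3.46% knockout-only and 2.88% wild-type-only. Rad17/Taf9/Ak6, at a checkpoint gene and a gene of the transcription factor TFIID, had pileups of 60 and 62 in knockout and 56 and 56 in wild type. Gm20604/Gon7/Ubr7, at a gene of transfer RNA modification, had 69 and 86 in knockout and 71 and 90 in wild type. Jmjd8/Stub1/Rhbdl1, at the gene of the ubiquitin ligase CHIP, had 53 and 57 in knockout and 59 and 67 in wild type. With pileups centred on each library's median, the genotypes overlapped at each of these members.

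Of the 5 members near 3′ ends only, Erbb2/Mien1 stood out from the rest. Its 3′ ends lie 8 bp apart, and its pileups were 31 and 38 in knockout and 33 and 38 in wild type, with percentiles of at least 88.6 in every library. Eif4a2/Rfc4 had 14 and 12 in knockout and 14 in wild-type replicate 2, and no peak in wild-type replicate 1. Naxd/Cars2 had 11 in knockout replicate 2 and 8 in wild-type replicate 1, and Bap1/Dnah1 had 10 and 8 in knockout and no peak in wild type. Hmgcs1/Nim1k had 22 and 16 in knockout and 11 and 19 in wild type. The lowest percentiles of these other 4 members were between 2.74 and 18.7.

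The members' share differed between chromosomes. Their share of the regions called in at least 2 libraries was highest on chromosome 7, at 17.6% or 148 members, and on chromosome 17, at 17.2% or 102 members. It was lowest on chromosome 18, at 5.72% or 19 members. Per 100 protein-coding genes there were 9.63 members on chromosome 17 and 3.21 on chromosome X, the highest and the lowest values.

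Values on either side of the limits of the rule were mixed. The 45 members whose second gene end lay 900 to 1000 bp away had a median lowest percentile of 28.3, and 29 of them were called in all 4 libraries. The 50 regions whose second end lay 1001 to 1100 bp away, just outside, had 43.0, and 42 of them were called in all 4. The 88 members called in exactly 2 libraries had a median lowest percentile of 10.5. The 99 regions at 2 or more gene ends called in a single library, outside the rule, had 13.3. Of these, 29 and 22 were in the knockout libraries and 13 and 35 in the wild-type libraries.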

How the data were processed

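Chromatin accessibility was measured by ATAC-seq in 2 Chd7-/- and 2 wild-type libraries of G1ER cells, with lysates treated with Nextera transposase at 37C per the labels' protocols. The files were 1 peak list per library, called separately, with 12431 and 11361 peaks in knockout and 11074 and 12033 in wild type on chromosomes 1 to 19 and X. The submitters' processing notes list Bowtie2 2.2.1 with MACS2 2.1.0, and the deposited peak names give GRCm38. The calling threshold, any control, the shift for the transposase cut and duplicate removal are steps for which nothing was given in the sources used here. The deposited score is 10 times the −log10 q, as a whole number, and was not used. The deposited fold enrichment is the authors' ratio of summit pileup to local background, and was used to rank peaks within a list. The deposited −log10 p and −log10 q are the authors' own.

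Fold enrichment and −log10 p together fix the whole-number pileup at each summit, taking the ratio as pileup plus 1 over background plus 1 and a Poisson p-value. This recovered all but 1 peak per library, with a tolerance of 0.001 in −log10 p, and assumes unscaled pileups. Total reads are unknown. Regions were merged on any overlap, and bedtools 2.31.1 gave the same 15316. Gene ends and strands came from RefSeq tables of GRCm38.p6, with no genome sequence used here. limma 3.58.1 in R 4.3.3 was run over all regions called in 4 libraries, with a pseudocount of 1, and was tested on simulated data. No covariate was used, and the replicate block, gene-end windows of 500 bp and 2000 bp, a −log10 q of at least 5, a pseudocount of 5, equal list lengths, scaling by background and leaving out each library were tried.

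Members, gene lists and motifs were chosen with earlier results of these data known. Named regions were the 10 strongest, up to 10 called in each genotype alone, 5 at each end of the log2 differences without overlap, up to 4 per list, the 5 strongest per orientation, the 5 near most genes, the 3 widest, and those at Chd7, Runx1, Gata1, Kit and Cbfb. Yipf2/Timm29, the regions called in 1 genotype alone beyond the 10, and region 1 of Mrpl41/Pnpla7 and of Poglut2/Bivm lie outside this rule and were added after their values were seen. The exact permutation tests were also added then. Some members that the rule names are not reported here.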

Additional observations from a re-analysis of the deposited data

Results flagged for a closer look

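The number of members called changed in opposite ways at the labelled times. At 1 h, knockout minus wild type was 7 members, and at 2 h it was -50 members. Each time holds 1 library per genotype, and the difference between the times was not tested.

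Regions at 2 or more gene ends called in a single library also ran in opposite ways. Knockout minus wild type was 16 regions at 1 h and -13 regions at 2 h, and the difference between the times was not tested. The lowest background was 1.04 in knockout and 0.787 in wild type at 1 h, and 1.01 in knockout and 1.08 in wild type at 2 h, and its part in these counts was not tested.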

How the results depend on the processing

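Of 126 values under alternative settings, 101 kept their direction, their side of the threshold or their size, 18 moved, 7 passed a threshold they had missed, and 0 reversed, counting each genotype's strength on its own. Many of these values are log2 differences at members chosen because both knockout values lay on the same side of both wild-type values. That choice makes a change of sign unlikely, and the replicate block leaves such an estimate as it was. The absence of reversals is therefore no support for these members. With a 500 bp window the knockout-only count was 8 and the wild-type-only count 14, with median strengths of 69.5 in knockout and 68.2 in wild type. With a 2000 bp window the wild-type-only count was 36, with strengths of 65.5 in knockout and 63.7 in wild type. Keeping peaks with −log10 q of at least 5 gave strengths of 63.59 in knockout and 63.63 in wild type, which turned the order of the genotypes, and lists of equal length gave 65.9 in knockout and 64.9 in wild type. Scaling by background gave 5 members with a limma adjusted p under 0.05. The cause of each of these moves was not tested.

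Leaving out each library in turn gave 14 to 47 knockout-only members and 23 to 56 wild-type-only members, counted on the members of the full rule with 3 libraries, so fewer calls are asked for. The 47 came without wild-type replicate 2, and 56 and 52 without knockout replicate 1 and 2. Median strength ran from 66.8 to 68.6 in knockout and from 66.1 to 66.9 in wild type, and the number of members from 1378 to 1398.

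The replicate number is also the labelled time and was not shown to pair the libraries: differences between replicates correlated between genotypes with r = 0.0018 over all regions and -0.011 over members, across regions that are not independent. With the replicate block 0 members passed, as without it. Motif shares were not recomputed on the regions' own sequence, as no genome was used here. Depth is unknown, intervals were not given, and 2 libraries per genotype limit what a test can show.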
